A study of Nannochloropsis oceanica with 12 samples.

Results

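In the marine alga *Nannochloropsis oceanica* IMET1, 80 of 9756 measured genes had lower transcript levels in the carbonic anhydrase CA2 knockdown line M2 than in the wild type (WT) at 24 h while the lines were close to each other at 12 h. The genes were chosen from their measured values. A gene was taken when the M2 minus WT difference of log2(mean FPKM + 1) was -0.6 or lower at 24 h and lay between -0.25 and 0.25 at 12 h, with a mean of at least 5 FPKM in any group. FPKM scales sequenced fragments to the length of the transcript and to the mapped total of the library. Because these differences chose the genes, they are given below as a description and without a test. In 72 of the 80 genes the level in WT was called higher at 24 h than at 12 h, beside 33.1% of all tested genes, in 42 it was called higher in both lines, beside 25%, and in 9 it was called lower in M2, beside 35.2%. The choice of genes used the same libraries, so these counts too are a description. With WT 12 h replicate 3, a library that stands apart, in the fit, 23 were called higher in WT (beside 7.51%), 6 higher in M2 (beside 8.14%) and 0 lower in M2 (beside 6.95%).

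Carbonic anhydrases interconvert CO2 and bicarbonate, and in algae they take part in the supply of inorganic carbon to the plastid, where Rubisco fixes CO2. *Nannochloropsis* is a unicellular stramenopile alga known for storing oil. RNA interference lowers a transcript through a homologous double-stranded RNA and leaves the gene itself in place. The study compared M2 with WT at high CO2 after transfer to fresh medium.

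The groups were M2 at 24 h, WT at 24 h, M2 at 12 h and WT at 12 h after transfer, all of strain IMET1, grown in continuous light with 5% CO2 in air, with 3 labelled replicates each. M2 is a single knockdown line and the only control is WT, so lowered CA2 and other differences between these lines cannot be told apart. Whole cells and total RNA are given as the source, but nuclear RNA as the subtype. Polyadenylated RNA was sequenced without strand, so a gene's reads cannot be told apart from those of an antisense neighbour that overlaps it. Each ID consists of a scaffold and a number, and the files pair it with no gene name or product: 0 matched the reference table used here, which holds 160 organelle genes. The functions of the 80 genes are therefore not described, the level of CA2 is not reported, and 4 IDs are printed.

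Not all 12 labelled columns carried equal weight. The third column of M2 at 12 h equalled 0.723 times replicate 1, within 0.1%, for 9646 of 9647 genes above 0, and was counted with it as 1 library. WT 12 h replicate 3 correlated with its own group at r = 0.715 at most across genes, against 0.992 to 0.997 between other replicates, and its FPKM values summed to 780704 against 606886 to 617319 in the others. The choice of genes left it out, and so did the test, which used 10 libraries. Averaging it into the WT 12 h mean would leave 22 of the 80 genes within 0.25 at 12 h, with 51 below -0.25 and 7 above 0.25. The number of reads behind each value is not given. Steps between low values put the worth of 1 read in M2 12 h replicate 1 at an estimated 4.08 times that in replicate 2. Of 132 genes above 0 and under 1 FPKM in both, 73 had ratios that fit it. A fit meant this value divided by a whole number from 1 to 12, within 1%. On that estimate low values of replicate 1 are coarser.

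At 24 h, 619 genes of at least 5 FPKM met the lower limit of -0.6. At 12 h, 334 of these were at -0.6 or lower too, 190 lay between -0.6 and -0.25, 80 lay within 0.25 of equality and 15 were above 0.25. Among the 80 genes the 24 h difference ran from -1.53 to -0.60 with a median of -0.68, beside a median of 0.013 over all genes of at least 5 FPKM. On the linear scale the M2 level at 24 h was 0.247 to 0.655 times the WT level, with a median of 0.6. Only 4 genes lay at -1 or lower, and 43 lay between -0.7 and -0.6. At 12 h the difference was below 0 in 56 genes and above 0 in 24, with a median of -0.093.

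The limits cut through a continuous spread of genes. The gene just inside the 24 h limit had 50.8 FPKM in M2 and 77.6 FPKM in WT, a difference of -0.6002, and the gene just outside had 48.0 FPKM in M2 and 73.3 FPKM in WT, a difference of -0.5995. Another 60 genes with a 12 h difference within 0.25 lay between -0.6 and -0.5 at 24 h. At 12 h the genes nearest the lower limit stood at -0.2495 inside and -0.2533 outside, and those nearest the upper limit at 0.23 inside and 0.27 outside. A further 35 genes met both differences but not the floor, the most abundant of them with 4.21 FPKM in its highest group, and the lowest of the 80 genes had 5.15 FPKM there. Of the 80 genes, 7 reached the floor in WT at 24 h alone.

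**Figure D1:**
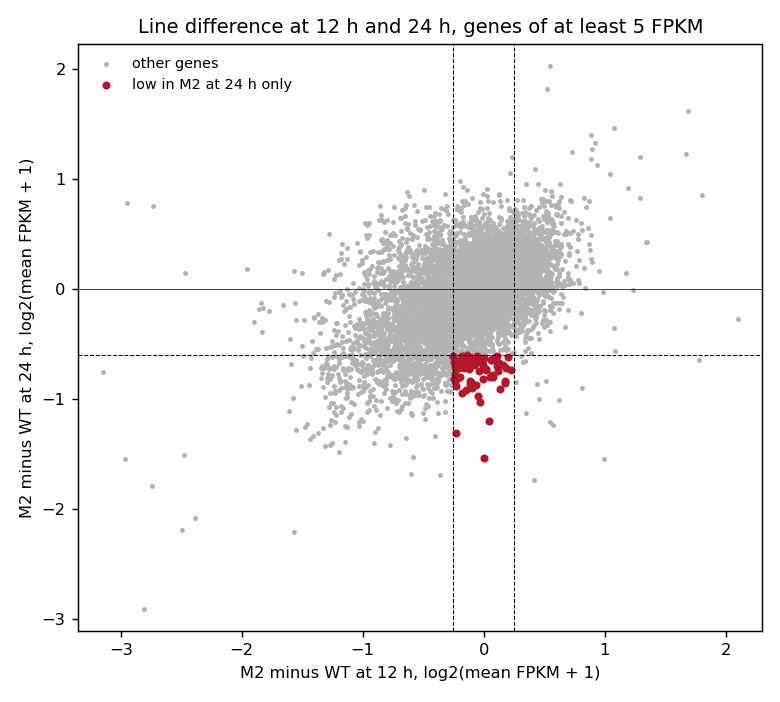
Difference between the lines, M2 minus WT in log2(mean FPKM + 1), at 12 h (horizontal) and 24 h (vertical) for 9271 genes of at least 5 FPKM in any group. Dashed lines mark the limits of -0.25, 0.25 and -0.6, and the 80 chosen genes (red) lie in the lower middle field, reaching down to -1.53.

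Most of the 80 genes were of moderate abundance. WT levels at 24 h were under 10 FPKM in 11 genes, from 10 to under 100 FPKM in 58 and at least 100 FPKM in 11. Median levels were 13.9 FPKM in M2 at 24 h, 22.8 FPKM in WT at 24 h, 13.6 FPKM in M2 at 12 h and 14.1 FPKM in WT at 12 h. The choice of genes put the WT 24 h level above the M2 24 h level and held the 12 h levels together, so nothing is read from the order of these medians. The M2 level at 24 h lay within 0.25 (log2) of the WT level at 12 h in 34 genes, with a median difference of 0.19.

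Within groups, the 10 libraries used were close for these genes, with WT 12 h replicate 3 left out. In that library 44 of the 80 genes lay at least 1 (log2) above the mean of replicates 1 and 2, beside 16.3% of tested genes. A further 11 lay at least 1 below it, beside 32.8%. The median coefficient of variation was 5.29% in M2 at 24 h and 3.79% in WT at 24 h (n = 3 each), and 7.88% in M2 at 12 h and 4.61% in WT at 12 h (n = 2 each). Every M2 library lay below every WT library at 24 h in all 80 genes, as it did in 32.8% of all 9579 tested genes. At 12 h the same held in 24 of the 80, beside 41.4% of tested genes. The choice of genes used both of these comparisons, and nothing is read from those counts.

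**Figure D2:**
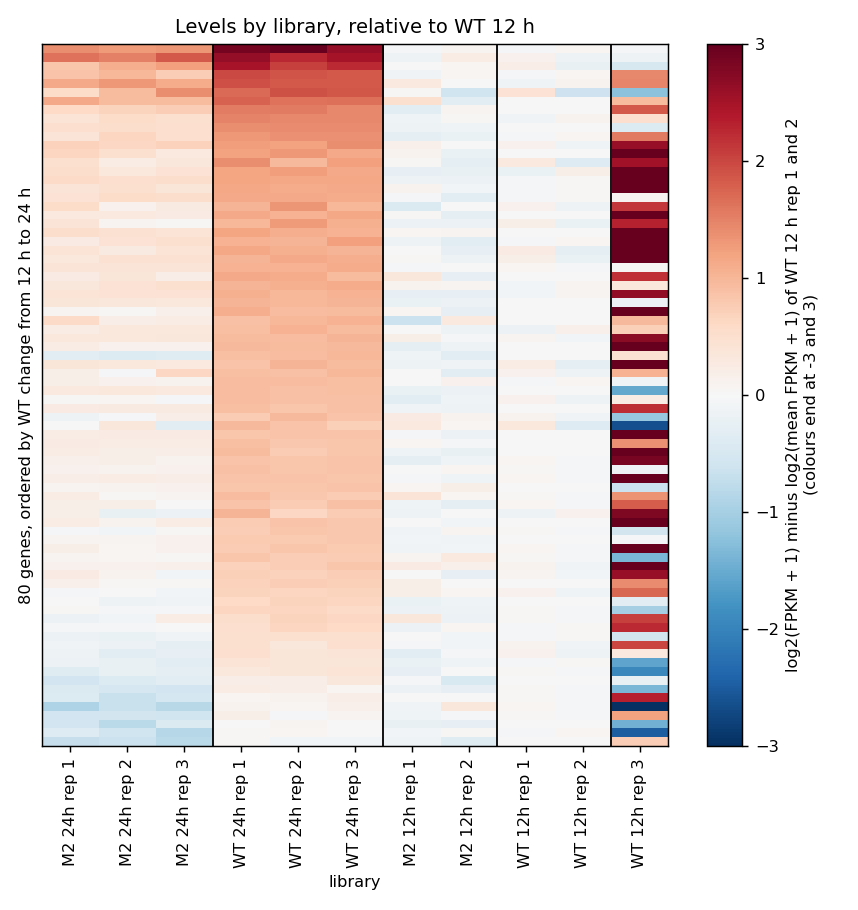
Levels of the 80 genes (rows, ordered by the change in WT from 12 h to 24 h) in each library (columns), as log2(FPKM + 1) minus the WT 12 h mean of replicates 1 and 2. The 3 WT libraries at 24 h are raised in most rows, the M2 libraries at 24 h less so, and WT 12 h replicate 3, set apart at the right, varies in both directions.

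The change from 12 h to 24 h within each line was fitted over all genes. The choice of genes fixed the gap between the changes of M2 and WT (at least 0.36 in each of the 80 genes, in log2 of mean FPKM + 1). It used the same 10 libraries and favours genes with a high change in WT and a low change in M2, so the calls on the 80 genes are no independent test, and nothing is read from their distance to the shares over all genes. In M2, the 24 h level was higher in 42 and lower in 9 of the 80 genes (limma, adjusted p under 0.05 over 9579 genes), beside 34.9% higher and 35.2% lower among all tested genes. In WT, it was higher in 72 and lower in 0 of the 80 (limma, 0 lower also at an unadjusted p under 0.05), beside 33.1% higher and 33% lower among all tested genes. The estimated change was above 0 in 54 of the 80 genes in M2, with a median of 0.26, quartiles of -0.10 and 0.47 and a median SE of 0.084. It was above 0 in 79 of the 80 genes in WT, with a median of 0.88, quartiles of 0.73 and 1.10 and the same median SE. Over all tested genes the medians were -0.0063 in M2 and -0.0019 in WT. Every 24 h library lay above every 12 h library in 47 genes in M2, beside 41.5% of tested genes, and in 76 genes in WT, beside 41%. Every 24 h library lay below every 12 h library in 10 genes in M2, beside 35.9%, and in 0 genes in WT, beside 37.6%.

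A rise of at least 1 on the log2 scale that passed the test was found in 3 of the 80 genes in M2, beside 8.08% of tested genes. In WT such rises were found in 29 of the 80, beside 3.53% of tested genes. Falls of that size were found in 0 of the 80 genes in either line, the deepest being -0.98 in M2, beside 0.929% of tested genes in M2 and 1.71% in WT.

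When M2 was fitted without WT, 42 of the 80 genes were higher and 8 lower at 24 h (limma, adjusted p under 0.05). The calls in M2 therefore did not need WT libraries in the fit. The list of 80 genes did rest on a choice among the WT libraries. With WT 12 h replicate 3 averaged into that choice, 59 genes were taken, of which 22 were among the 80. In the fit of all groups, fewer of the 80 genes were called in both lines once WT 12 h replicate 3 was put in. With that library in the fit, 6 of the 80 genes were higher and 0 lower in M2 at 24 h (limma, 0 lower also at an unadjusted p under 0.05), beside 8.14% and 6.95% of tested genes. In WT 23 were higher and 0 lower in that fit, beside 7.51% and 8.42%. The median M2 change stayed near its value without that library, at 0.27 with 54 genes above 0, while the median SE in M2 was 0.50. The median WT change was then 0.26, with 50 genes above 0 and a median SE of 0.44. The scaling of libraries also moved the balance in M2, to 31 higher and 24 lower with quantile normalization, beside 29.3% and 38.6% of tested genes in that fit.

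**Figure D3:**
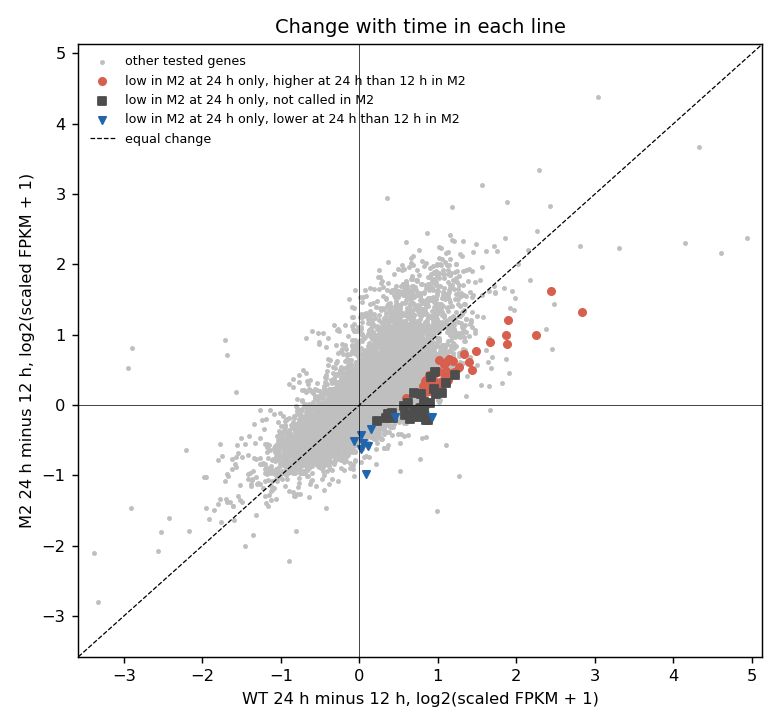
Change from 12 h to 24 h in log2(scaled FPKM + 1) in M2 (vertical) and WT (horizontal) for 9579 tested genes. All 80 chosen genes lie below the dashed line of equal change, as the selection requires, with 42 higher at 24 h in M2 (circles), 9 lower (triangles) and 29 not called (squares).

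By their calls in the lines the 80 genes fell into 5 groups. In the largest, 42 genes were higher at 24 h in both lines, with changes of 0.10 to 1.62 in M2 (median 0.44) and 0.59 to 2.83 in WT (median 1.08). The gain in M2, in FPKM, was 18% to 47.9% of the gain in WT, with a median of 31.6%. Genes higher in both lines made up 25% of all tested genes.

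The next group of 28 genes was higher at 24 h in WT and not called in M2, with changes of -0.21 to 0.47 in M2 (median -0.052) and 0.34 to 1.22 in WT (median 0.79). Among all tested genes 6.75% had this pair of calls. Their median 24 h levels were 10.2 FPKM in M2 and 16.3 FPKM in WT.

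The third group held 7 genes that were lower at 24 h in M2 and not called in WT, with changes of -0.98 to -0.33 in M2 and -0.070 to 0.14 in WT. This pair of calls was found in 8.04% of tested genes. A further 2 genes were lower at 24 h in M2 and higher in WT, beside 1.36% of tested genes. Their M2 changes were small, at -0.18 and -0.17, against 0.92 and 0.46 in WT. The last gene was called in neither line, with changes of -0.23 in M2 and 0.23 in WT.

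The 2 genes with the highest rise in WT were scaffold00113.g4108 and scaffold00295.g8637, both nearly undetected at 12 h. Scaffold00113.g4108 had 1.75, 1.52 and 1.64 FPKM in M2 at 24 h, 6.64, 7.72 and 5.52 FPKM in WT at 24 h, 0 and 0.1 FPKM in M2 at 12 h, and 0 and 0.0946 FPKM in WT at 12 h. The 24 h libraries of both lines lay above all 12 h libraries, and no M2 library at 24 h reached the lowest WT library. Its change with time was 1.33 in M2 (SE 0.16) and 2.83 in WT (SE 0.16), on the log2(scaled FPKM + 1) scale. It reached the floor of 5 FPKM in WT at 24 h alone, so that high group admitted it, and no p is given. The size depends on the pseudocount, with 3.61 in M2 and 5.55 in WT when 0.1 was added and 0.39 in M2 and 1.18 in WT when 5 was added.

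Scaffold00295.g8637 had 2.45, 2.15 and 2.99 FPKM in M2 at 24 h, 5.90, 4.32 and 5.25 FPKM in WT at 24 h, 0 and 0.301 FPKM in M2 at 12 h, and 0.222 and 0 FPKM in WT at 12 h. Here too the 24 h groups did not overlap, and both stood above the 12 h libraries. The change with time was 1.62 in M2 (SE 0.19) and 2.44 in WT (SE 0.19). This gene also reached the floor in WT at 24 h alone, and no p is given. With pseudocounts of 0.1 and 5 its change was 3.69 and 0.55 in M2 and 4.83 and 0.97 in WT. In all, 3 of the 80 genes had under 1 FPKM in both lines at 12 h, these among them. At such levels the added 1 FPKM draws the 12 h difference toward 0. For these 3 genes closeness at 12 h thus says little about the ratio of the lines, as both were near the lower end of the scale.

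The genes with the deepest fall in M2 were scaffold00095.g3446 and scaffold00071.g2472, and in WT neither passed the test. Scaffold00095.g3446 had 8.74, 10.5 and 9.31 FPKM in M2 at 24 h, 18.7, 18.2 and 19.5 FPKM in WT at 24 h, 16.2 and 22.3 FPKM in M2 at 12 h, and 18.1 and 16.7 FPKM in WT at 12 h. Of these 10 libraries only those of M2 at 24 h were low, and those of WT at 24 h lay within the range of M2 at 12 h. It fell by 0.98 in M2 (SE 0.12, limma adjusted p = 1.4e-05), and its change in WT was 0.084 (SE 0.12, limma adjusted p = 0.53).

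Scaffold00071.g2472 had 45.7, 39.7 and 32.9 FPKM in M2 at 24 h, 61.9, 62.4 and 60.9 FPKM in WT at 24 h, 56.5 and 61.9 FPKM in M2 at 12 h, and 57.7 and 62.9 FPKM in WT at 12 h. The M2 libraries at 24 h spread more widely than the WT libraries, with an SD of 6.42 FPKM against 0.795 FPKM (n = 3 each). It fell by 0.63 in M2 (SE 0.10, limma adjusted p = 0.0002), and its change in WT was 0.015 (SE 0.10, limma adjusted p = 0.9). In WT 12 h replicate 3, which is outside these values, scaffold00095.g3446 had 0.319 FPKM and scaffold00071.g2472 had 10.1 FPKM. With that library in the fit the M2 changes of these genes were nearly the same, at -0.97 and -0.63, but neither passed (limma adjusted p = 0.6 and 0.55). The choice of genes favours low M2 levels at 24 h, so the p-values of these falls are no independent test.

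**Figure D4:**
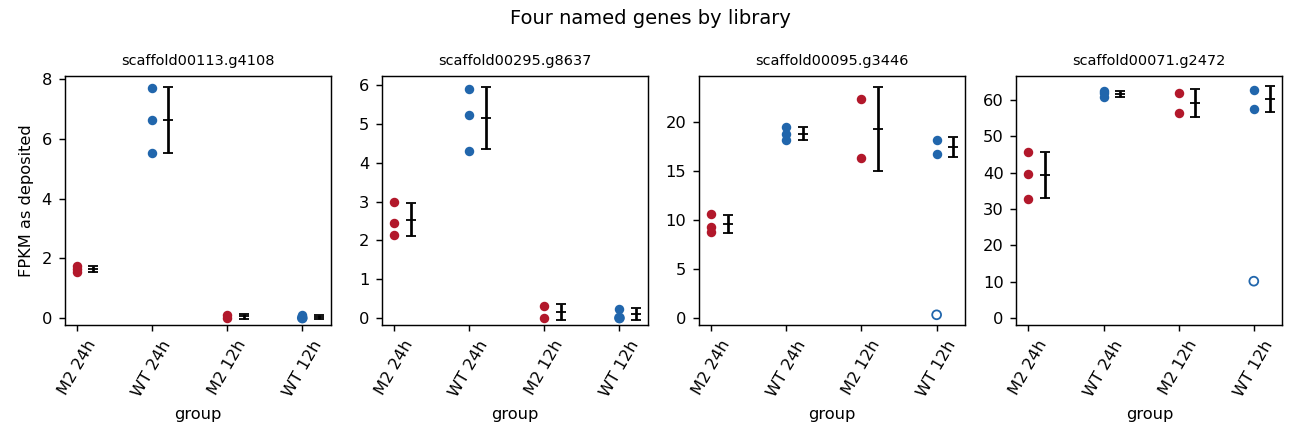
FPKM as deposited in each library for the 4 named genes, with M2 in red and WT in blue, and the mean and SD as bars beside the points (n = 3 at 24 h, n = 2 at 12 h). WT 12 h replicate 3 is the open circle, outside the mean. The left pair is near 0 at 12 h and highest in WT at 24 h, and the right pair is low in M2 at 24 h.

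The selection also reached highly expressed transcripts. The most abundant of the 80 genes had 736, 734 and 760 FPKM in M2 at 24 h, 1187, 1187 and 1214 FPKM in WT at 24 h, 650 and 638 FPKM in M2 at 12 h, and 688 and 695 FPKM in WT at 12 h. All 24 h libraries lay above the 12 h libraries, those of WT farther than those of M2. The next had means of 643 ± 7.98 FPKM in M2 and 981 ± 17.0 FPKM in WT at 24 h (SD, n = 3 each), and 462 ± 3.60 FPKM in M2 and 524 ± 7.49 FPKM in WT at 12 h (SD, n = 2 each). Below it came a gene with 456 ± 4.56 FPKM in M2 and 859 ± 10.3 FPKM in WT at 24 h (SD, n = 3 each), and 290 ± 4.30 FPKM in M2 and 321 ± 0.573 FPKM in WT at 12 h (SD, n = 2 each).

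Among those of the 80 genes above 10 FPKM in WT at 24 h, the lowest 24 h difference was -1.31. That gene had 69.9, 65.4 and 67.6 FPKM in M2 at 24 h, 165, 166 and 175 FPKM in WT at 24 h, 79.4 and 69.0 FPKM in M2 at 12 h, and 86.9 and 87.7 FPKM in WT at 12 h. WT libraries at 24 h lay far above all others, whereas the M2 libraries at 24 h reached into the range of M2 at 12 h. Its 12 h difference of -0.23 was close to the lower limit.

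By their IDs the 80 genes were spread over 34 of 283 scaffolds, with at most 7 on a scaffold, which holds 496 of the genes measured. Pairs of consecutive gene numbers on the same scaffold occurred 3 times, so that 6 of the 80 genes (7.5%) had another of the 80 next to them, beside 1.45% of the other genes of at least 5 FPKM. Within 5 gene numbers the shares were 15% and 6.74%. In a pair the levels could differ widely: in the second, the gene of lower number had 19.0 FPKM in M2 and 34.3 FPKM in WT at 24 h, and its neighbour 456 FPKM in M2 and 859 FPKM in WT. Their changes with time were -0.016 and 0.65 in M2 against 0.79 and 1.42 in WT (log2 of mean FPKM + 1). Gene numbers are taken as an order along the scaffold, strand is not known, and whether neighbouring genes share reads was not tested.

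WT 12 h replicate 3, which the selection did not use, held the 80 genes mostly at high levels. Its log2(FPKM + 1) minus that of the mean of replicates 1 and 2 had a median of 1.39 over the 80 genes and -0.48 over all tested genes. At least 1 above were 44 of the 80 (55%), beside 16.3% of tested genes, and at least 1 below were 11 (13.8%), beside 32.8%. Of 1178 other genes with a called WT rise of at least 0.6, 42.2% were at least 1 above in that library, with a median of 0.54. The share was thus also raised in other genes that rose with time in WT, and the part of this library in the results was not tested.

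**Figure D5:**
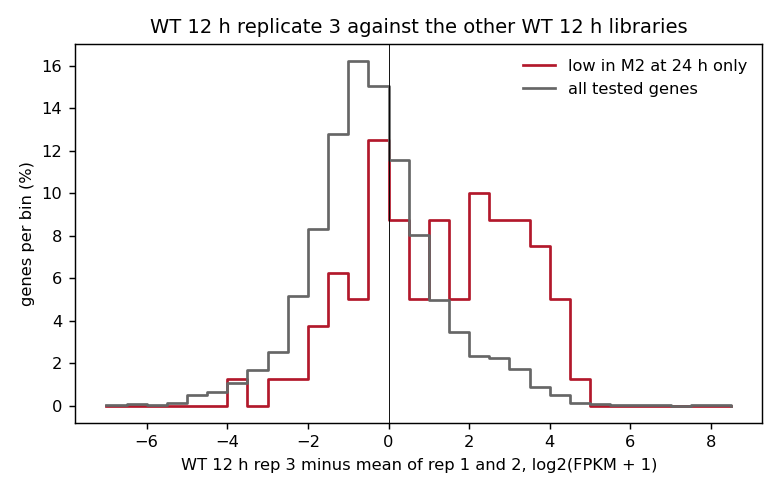
Share of genes (%, in bins of 0.5) by the level in WT 12 h replicate 3 minus the mean of replicates 1 and 2, in log2(FPKM + 1). The 80 genes (red) are spread to higher values, with a median of 1.39, than all tested genes (grey), with a median of -0.48.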

How the data were processed

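The authors deposited FPKM values in 1 table per group and 2 tables of merged group values, made, per the submitters' processing notes, with TopHat2 2.0.4 and Cufflinks 2.0.2. Build, annotation and any joint normalization of the tables: not given in the sources used here. Differences between groups thus cannot be told apart from differences between tables. Count models do not suit FPKM and were not used. The M2 24 h columns are headed MT and were assigned through the table's link to that group.

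The 80 genes, the test and the rule for named genes were chosen with earlier results of these data known. The 10 libraries were scaled by median-of-ratios factors (0.965 to 1.02), genes with a mean of at least 1 FPKM (9579, all 80 among them) were tested on log2(scaled FPKM + 1), which understates changes of low genes, and a mean per group was fitted with limma 3.58.1 in R 4.3.3 (intensity trend, 2-sided, no replicate block). Benjamini-Hochberg adjustment was applied within each of 2 comparisons, 24 h against 12 h in M2 and in WT. SDs of levels are of FPKM as deposited. Nothing in the labels says that replicates with the same number share a culture or day. The replicate labels also do not say whether replicates were separate cultures, so p-values measure the spread between these libraries. The code was tested on simulated data. By the rule for IDs without names, the 2 genes with the highest called change in WT and the 2 with the lowest in M2 were named, if 24 h and 12 h values did not overlap. Alternatives covered pseudocounts, filters, scalings, the replicate block, moderation, the groups fitted and leaving out each library. Gene lists by product name could not be applied. Figures were drawn with matplotlib 3.10.9.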

Additional observations from a re-analysis of the deposited data

Results flagged for a closer look

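The change with time had opposite calls in the lines in 2 of the 80 genes, lower at 24 h in M2 and higher in WT. The difference between the lines was not tested, since the choice of genes fixed it.

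In some columns outside the comparisons, set against libraries that the choice of genes used, these genes differed from all tested genes. In WT 12 h replicate 3, 55% of the 80 genes lay at least 2-fold above the mean of the other WT 12 h libraries on the FPKM + 1 scale, beside 16.3% of tested genes. Among 1178 other genes with a called WT rise of at least 0.6 the share was 42.2%. In the authors' deposited table of merged values, the M2 12 h column lay above the mean of its replicates by a median of 0.94 (log2) over the 80 genes, beside -0.38 over all tested genes. The merged WT 12 h column lay above replicates 1 and 2 by a median of 0.50, beside -0.39. Merged values are of a whole group, and WT 12 h replicate 3 is labelled as part of its group. The merged WT 12 h column may therefore not be separate from that library. The merged M2 12 h column lay at least 1 (log2) above its replicate mean in 39 of the 80 genes (48.8%). Among all tested genes that share was 14.4%. Such values exceed each deposited M2 12 h column, as the third is a rescaled copy of replicate 1. The merged WT 12 h column lay that far above in 31 of the 80 (38.8%), beside 7.2% of tested genes. Which libraries entered the merged columns was not tested. From the same authors' deposited table, M2 minus WT at 12 h had a median of 0.20 over the 80 genes and ranged from -1.10 to 2.04, with 30 genes within 0.25, 3 at -0.6 or lower and 38 above 0.25. At 24 h the merged columns gave -1.53 to -0.60, with all 80 genes at -0.6 or lower. They lay near the means of the 24 h replicates, by a median of -0.0013 in M2 and 0.0023 in WT (log2) over the 80 genes. The choice of genes used those means, so nothing is read from the 24 h values.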

How the results depend on the processing

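With pseudocounts of 0.1 and 5 the selection gave 90 and 52 genes, of which 74 and 37 were among the 80. Quantile normalization gave 145 (56 shared), median-of-ratios scaling 87 (64 shared) and WT 12 h replicate 3 averaged in 59 (22 shared). Leaving out each library gave 80 to 90 genes, of which 62 to 77 were among the 80. The fewest were shared without M2 12 h replicate 1 (62), M2 12 h replicate 2 (64) and either WT 12 h replicate (67 each). Of the 80, the counts higher and lower at 24 h were 42 and 9 in M2 and 72 and 0 in WT. With WT 12 h replicate 3 in the fit they were 6 and 0 in M2 and 23 and 0 in WT, and the median SE over the 80 genes was 0.50 in M2 and 0.44 in WT, against 0.084 without it, while the median M2 change was 0.27, against 0.26. Quantile normalization gave 24 lower in M2, 8 of them among the 9, and in that fit calls over all genes moved too, to 2802 higher and 3695 lower in M2, against 3345 and 3368. Leaving out each library gave 37 to 43 and 8 to 13 in M2 and 70 to 72 and 0 to 0 in WT. The cause of these differences was not tested. The other alternatives kept each count within 1.5 times. With the replicate number as a block the counts were 42 and 9 in M2 and 72 and 0 in WT. Deviations of libraries with the same number correlated at -0.042 to 0.034. In the 12 h groups, with n = 2, the deviations mirror each other. At 24 h, with n = 3, M2 and WT libraries of the same number correlated at -0.013, -0.0036 and 0.015. Those of different numbers correlated at -0.013 to 0.017. No shared deviation by number was seen, which does not show that the samples were unpaired. The change of scaffold00071.g2472 in WT, not called, was -0.044 without WT 12 h replicate 1 and 0.078 without replicate 2. Leaving out M2 12 h replicate 1 or 2 assumes that the lone library varies like the other groups, and likewise for WT.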

Other observations

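Genes that were low in M2 at other times are set beside the 80 genes as values, with no test. Of 334 genes at -0.6 or lower at both times, 268 (80.2%) were higher at 24 h than at 12 h in M2 and 228 (68.3%) in WT (limma, adjusted p under 0.05). Lower were 11 in M2 and 23 in WT, and median changes were 0.48 in M2 and 0.43 in WT. Of 290 genes at -0.6 or lower at 12 h and within 0.25 at 24 h, 235 (81%) were higher in M2 and 152 (52.4%) in WT. There 14 were lower in M2 and 66 in WT, and median changes were 0.99 in M2 and 0.27 in WT. Among all tested genes 34.9% were higher and 35.2% lower in M2, and 33.1% were higher and 33% lower in WT. In the 80 genes the medians were 0.26 in M2 and 0.88 in WT. These lists were cut from the same group means, which set the order of the medians of the lines in part.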
